A study of Mus musculus with 9 samples.

Results

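The 44 mouse genes described here encode proteins of the lysosome and of autophagy: 6 lysosomal membrane and lipid export proteins, 8 cathepsins, 7 glycosidases, lipases and their activator, 6 subunits of the V-ATPase proton pump, the transcription factors TFEB and TFE3, and 15 autophagy proteins. They were given as a list of symbols. A gene was measured by the probe sets (groups of probes on the array) annotated to its symbol alone, and the brightest of these, by mean log2 intensity, stood for the gene. Such a probe set was found for 43 of the 44 genes, and all 43 passed the filter on dim signals, among 12652 genes tested in all. Cd63 had none and was not analysed here.

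The study profiled normal blood stem and progenitor cells during acute myeloid leukemia, to compare stages of the disease. Cells with the LKS+ phenotype (lineage-negative, Kit+, Sca-1+) and the CD45.1 allele were sorted from the bone marrow of 8 week old C57BL/6 mice. There were 3 control samples, 3 samples of leukemic mice at day 7 and 3 at day 14, each on an Affymetrix Mouse Genome 430 2.0 array. The controls carry no day, so time and disease cannot be told apart. The leukemia that was used, the source of the CD45.1+ cells and the number of mice per sample are not given in the sources used here. Within a group the samples are called biological replicates, with nothing said of separate animals or sorts, so a p-value here is set against the spread among these 9 arrays, which may be technical.

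Lysosomes are acidic compartments in which cathepsins, glycosidases and lipases break down material delivered by endocytosis and by autophagy. In autophagy a membrane is nucleated by the ULK1 and Beclin 1 complexes, marked by WIPI proteins and decorated with lipid-bound ATG8 proteins (the LC3 and GABARAP families); it closes around its cargo and fuses with a lysosome. TFEB and TFE3 bind short E-box sequences in many of these genes, and in blood stem cells autophagy is known for clearing mitochondria and for helping to keep the cells quiescent.

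The arrays had similar deposited intensities, with medians of 23.4 to 24.2, and the 75th percentile was 115 to 119 at day 14 and 127 to 130 in the other arrays. Pearson correlations of log2 intensity between arrays were 0.994 to 0.997 within groups, 0.99 to 0.995 between control and day 7, and 0.965 to 0.981 between control and day 14. Kit and Cd34, which mark immature blood cells, had mean intensities of 1720.4 and 2471 in control, 1453 and 2331 at day 7, and 1696 and 2321 at day 14. Ly6a, which encodes Sca-1, was not analysed here. These are bulk samples, so a change in the make-up of the sorted cells and a change in RNA per cell cannot be told apart.

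At day 14 the autophagy genes among the members stood mostly above control, and the lysosome genes among them were divided. Autophagy genes outside the members, described below, did not all share this. Of 23 other core genes 3 were higher and 5 lower, of 9 receptor genes 3 and 1, and of 12 fusion genes 0 and 3. Of the 43 members, 14 were higher and 5 lower at day 14 than in control (limma, Benjamini-Hochberg adjusted p below 0.05 over all genes tested). That is 44.2% of members called, against 52.4% of all genes tested, so being called was no more frequent among members than elsewhere. The directions were 32.6% higher and 11.6% lower among members, and 18.3% higher and 34.1% lower among all genes. The median log2 change was 0.06 over the members and -0.06 over all genes tested. The groups did not overlap for 21 members, against 58.1% of all genes.

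At day 7 a single member, Gla, was called by its brightest probe set, as higher, and none was called lower. This is 2.33% of members, where 3.34% of all genes were called in either direction, 2.21% as higher and 1.13% as lower. Unadjusted p-values were below 0.05 for 3 members, Gla, Ctss and Gabarapl2, and the groups did not overlap for 8 members, against 26.5% of all genes. Between day 14 and day 7, 10 members were higher and 5 lower, 34.9% of members against 51% of all genes; over all genes 17.4% were higher and 33.6% lower. The groups did not overlap for 22 members there, against 60.3% of all genes. The 3 comparisons share arrays (day 14 enters 2 of them, and so do control and day 7), so their values are given side by side and not as support for each other.

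**Figure D1:**
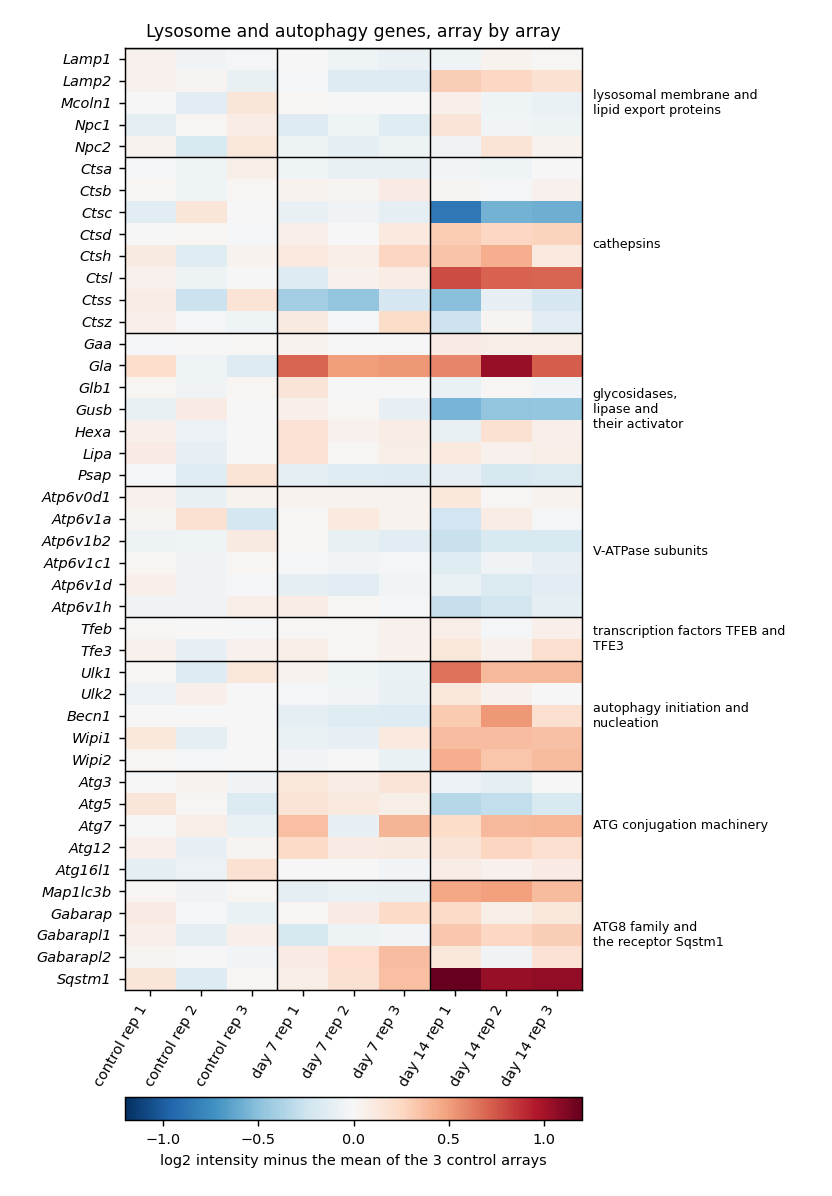
Heat map of the 43 members (rows, grouped by role) in the 9 arrays (columns), coloured by log2 intensity minus the mean of the 3 control arrays. Sqstm1, Ctsl and Gla are the darkest red at day 14 and Ctsc and Gusb the darkest blue, and among the day 7 columns the strongest red is in Gla.

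Of the 5 genes of the ATG8 family and its receptor, 3 were higher at day 14 and none was lower. That is 60% called against control, beside 52.4% of all genes, of which 18.3% were higher and 34.1% lower. Sqstm1 encodes p62, a receptor that binds ubiquitin-tagged cargo and ATG8 proteins and is itself degraded by autophagy. Its intensity was 582, 473 and 532 in the control arrays, 553, 600.0 and 677 at day 7, and 1241, 1086 and 1105 at day 14. All day 14 arrays lay above every other array, while control and day 7 overlapped. Sqstm1 rose by 1.11 on the log2 scale (2.17-fold, SE 0.10, limma adjusted p = 2.3e-05) against control and by 0.91 (SE 0.10, adjusted p = 5.6e-05) against day 7. It was the one member to pass 2-fold; of all genes, 3.25% were called and changed at least 2-fold in that comparison. The day 7 difference from control, 0.21 (SE 0.10, adjusted p = 0.29), was not called.

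Map1lc3b encodes LC3B, the ATG8 protein most often followed as a marker of autophagosomes. The control arrays read 2103, 2011 and 2103, the day 7 arrays 1920.0, 1961 and 1949, and the day 14 arrays 2850.4, 2915 and 2697. Day 14 was highest in every array, and day 7 lay just below control without overlap. Map1lc3b was 1.36-fold higher at day 14 than in control (log2 change 0.44, SE 0.06, limma adjusted p = 0.00017) and 1.45-fold higher than at day 7 (0.54, adjusted p = 5.1e-05). The lower value at day 7, -0.09 against control, had an adjusted p of 0.41 in the limma fit. The next brightest Map1lc3b probe sets changed by 0.17 and 0.07 at day 7 and a dim one by -0.25, and none was called.

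Gabarapl1, an ATG8 protein of the GABARAP branch, gave 1137, 1005 and 1137 in control, 955, 1048 and 1067 at day 7, and 1369, 1296 and 1343 at day 14. The day 14 arrays were again the 3 highest. It rose by 0.29 (SE 0.07, limma adjusted p = 0.007) against control and by 0.39 (adjusted p = 0.0014) against day 7. Its probe set has a name ending in _s_at, which marks probes that can bind more than one transcript; a second probe set, without that ending, changed by 0.25 against control. The other branch members Gabarap and Gabarapl2 were not called at day 14, with log2 changes of 0.15 (adjusted p = 0.14) and 0.08 (adjusted p = 0.42). Gabarapl2 read 588, 576 and 560.0 in control and 615, 662 and 741 at day 7, without overlap, a change of 0.22 (unadjusted p = 0.023, limma adjusted p = 0.17).

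**Figure D2:**
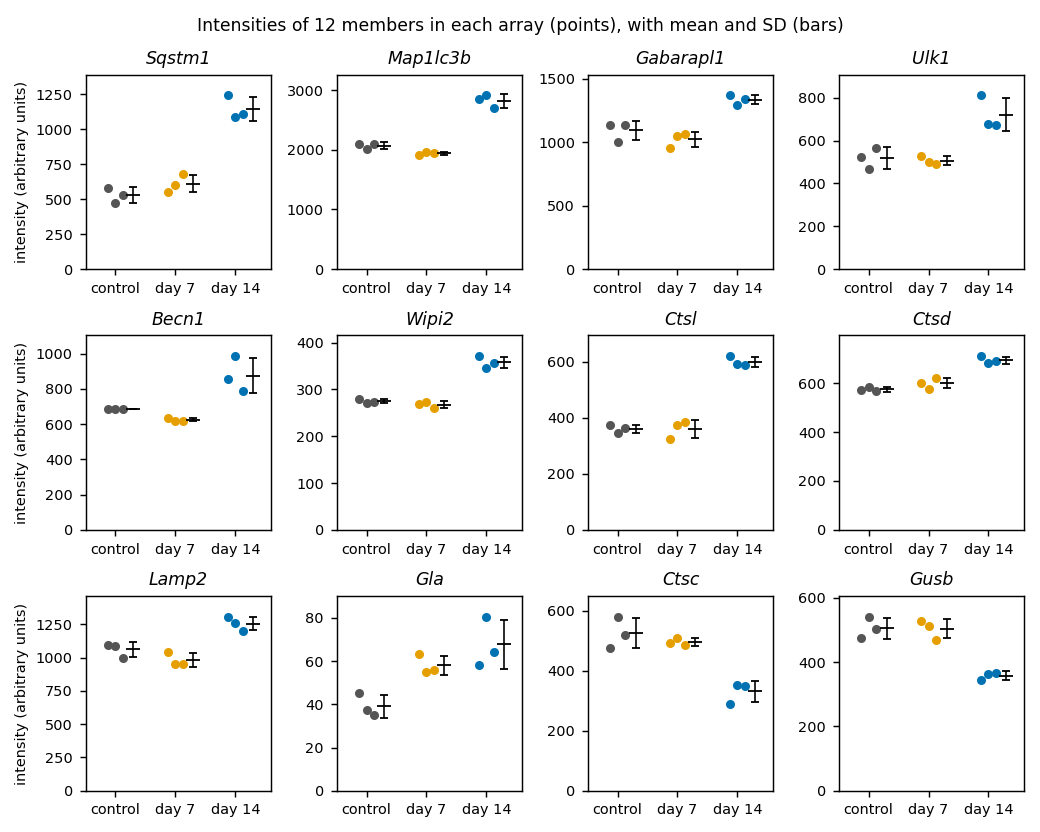
Intensity in each array (points, linear axis from 0 in arbitrary units) for 12 members, with the mean and SD of each group of 3 (bars). In Sqstm1, Map1lc3b, Gabarapl1, Ulk1, Becn1, Wipi2, Ctsl, Ctsd and Lamp2 the day 14 points lie above all others, in Ctsc and Gusb they lie below all others, and in Gla the day 7 and day 14 points both lie above control.

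Among the 5 genes of autophagy initiation and nucleation, 4 were higher at day 14 (Ulk1, Wipi2, Wipi1 and Becn1), against both control and day 7. That is 80% in each comparison, beside 18.3% and 17.4% of all genes called higher. Ulk1 encodes the kinase that starts autophagy and that mTORC1 holds inactive. It measured 522, 465 and 567 in control, 529.9, 498 and 489 at day 7, and 811, 678 and 674 at day 14. The lowest day 14 array exceeded the highest of the other 6. The change from control was 0.48 (1.39-fold, SE 0.09, limma adjusted p = 0.002) and from day 7 it was 0.51 (adjusted p = 0.0013). Ulk2, its paralogue, was not called at day 14, at 0.06 (SE 0.06, adjusted p = 0.46); its 2 dimmer probe sets, tested one by one, were called higher at 0.20 and 0.24.

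Wipi2 and Wipi1 bind the phosphoinositide of the growing membrane, and WIPI2 brings in the ATG16L1 complex. Wipi2 intensities were 279.5, 271 and 273 in control, 268, 274 and 259.8 at day 7, and 371, 346 and 356 at day 14. For Wipi1 they were 90.5, 76.5 and 82.6, then 78.6, 77.7 and 90.2, then 107, 107 and 106. For both genes control and day 7 overlapped and day 14 lay above them. The change from control was 0.38 for Wipi2 (SE 0.06, limma adjusted p = 4e-04) and 0.36 for Wipi1 (SE 0.08, adjusted p = 0.0039). Against day 7 the changes were 0.42 (adjusted p = 0.00019) and 0.38 (adjusted p = 0.0028). A dimmer Wipi2 probe set, tested on its own, was called higher at day 7 than in control (0.30, limma adjusted p = 0.046). It was called lower at day 14 than at day 7 (-0.25, adjusted p = 0.014). With the mean over the Wipi2 probe sets the change against day 7 was 0.11 and was not called. The Wipi1 probe set ends in _s_at. Its dimmer probe sets, tested on their own, changed by 0.26 (called higher), 0.11, 0.20 and 0.29 against control. Against day 7 they changed by 0.16, 0.15, 0.18 and 0.20, and none was called. Both Wipi1 calls were kept in all 21 alternatives, the mean over probe sets among them.

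Becn1 encodes Beclin 1, a subunit of the lipid kinase complex that nucleates the membrane. Its brightest probe set read 688 in all 3 control arrays, 637, 620.4 and 619 at day 7, and 855, 985 and 787 at day 14. Day 14 was the highest group and day 7 the lowest, without overlap. The changes were 0.34 against control (SE 0.08, limma adjusted p = 0.0049) and 0.48 against day 7 (adjusted p = 0.00063). Exactly equal values in the 3 arrays of a group were seen in no other member, and they leave the control spread of this probe set unknown. This probe set also ends in _s_at, and the next brightest one, with a mean intensity of 469.5, changed by -0.07 (SE 0.07, adjusted p = 0.44). A dimmer one, with a mean of 30.1, was called higher at 0.23 (adjusted p = 0.049). With the mean over its probe sets the change from control was 0.13 and was not called, while the call against day 7 was kept. Tested on their own, the other Becn1 probe sets changed by -0.03, 0.13 and 0.07 against day 7, and none was called.

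The conjugation machinery, which attaches ATG8 proteins to lipid, was divided. ATG7 is the E1-like enzyme, ATG3 the E2-like enzyme, and ATG12, ATG5 and ATG16L1 form the complex that acts as the E3. Atg7 and Atg12 were higher and Atg5 lower at day 14 than in control, and Atg3 and Atg16l1 were not called. These are 40% higher and 20% lower, beside 18.3% and 34.1% of all genes. Atg5 read 174, 158 and 140.4 in control, 176, 170.0 and 165 at day 7, and 124, 128 and 138 at day 14. The day 14 arrays were the 3 lowest, with the nearest control array only slightly above. Atg5 fell by 0.27 on the log2 scale against control (SE 0.08, limma adjusted p = 0.018) and by 0.39 against day 7 (adjusted p = 0.0027). The call against control was lost without control replicate 1 (-0.20), without day 14 replicate 1 (-0.24) and under both other scalings (-0.15 in each), while the call against day 7 was kept in all 21 alternatives.

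Atg12 gave 317, 283 and 311 in control, 356, 324 and 326 at day 7, and 337, 362 and 347 at day 14. Day 7 and day 14 overlapped and both lay above control. Its change at day 14 was 0.20 (SE 0.07, limma adjusted p = 0.033), and 0.14 at day 7 (adjusted p = 0.29). A dimmer Atg12 probe set, tested on its own, was called higher at day 7 (0.43, limma adjusted p = 0.029) and at day 14 (0.30, adjusted p = 0.015). Atg7 gave 108, 113 and 102 in control, 138, 100.4 and 143 at day 7, and 125, 141 and 142 at day 14. One day 7 array sat with the controls and the other 2 with day 14. The change at day 14 was 0.34 (SE 0.12, adjusted p = 0.04). Both calls were near the threshold: Atg12 lost it without control replicate 2 (0.15) or without day 14 replicate 2 (0.17) or 3 (0.20), and Atg7 without any 1 control array (0.30 to 0.38) or without day 14 replicate 2 or 3 (0.31 in each). With the mean over probe sets Atg7 was at 0.05 and was not called.

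Atg3 was called only between the leukemic stages. It read 914, 945 and 889 in control, 1005, 977 and 1021 at day 7, and 873, 844 and 918 at day 14. The day 7 arrays were the 3 highest, and day 14 overlapped control. Atg3 was lower at day 14 than at day 7 by a log2 change of -0.19 (SE 0.06, limma adjusted p = 0.021), while day 7 against control was 0.13 (adjusted p = 0.26) and day 14 against control -0.06 (adjusted p = 0.40). That call was lost under both other scalings, at -0.15 and -0.06, and without day 7 replicate 1 (-0.19) or 3 (-0.18) or day 14 replicate 2 (-0.16). Atg16l1 was at 0.08 (adjusted p = 0.42) at day 14 against control.

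Among the lysosome members, the largest gains and the largest losses at day 14 were in hydrolase genes. Of the 8 cathepsins, 3 were higher and 1 was lower at day 14 than in control, 50% called against 52.4% of all genes. Ctsl encodes cathepsin L, a cysteine protease. Its intensity was 374, 346 and 363 in control, 324, 373 and 384 at day 7, and 619, 590.2 and 587 at day 14. Day 14 stood well apart, and control and day 7 overlapped. Ctsl rose 1.66-fold against control (0.73, SE 0.07, limma adjusted p = 4.6e-05) and 1.67-fold against day 7 (0.74, adjusted p = 4.0e-05). Ctsd encodes the aspartic protease cathepsin D, with 573, 585 and 567 in control, 601, 578 and 622 at day 7, and 710.2, 682 and 690.3 at day 14. Its day 14 arrays were the 3 highest, and control and day 7 overlapped. Its rise was 0.27 against control (SE 0.06, adjusted p = 0.0027) and 0.21 against day 7 (adjusted p = 0.01); the latter was lost without day 7 replicate 2 (0.18).

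Ctsh encodes cathepsin H, an aminopeptidase. It gave 84.1, 70.6 and 80.8 in control, 84.9, 82.6 and 93.3 at day 7, and 99.3, 106 and 85.0 at day 14. The lowest day 14 array lay just above the highest control array and within the day 7 range. The change from control was 0.30 (SE 0.10, limma adjusted p = 0.026), lost without control replicate 2 (0.23) or day 14 replicate 1 (0.28) or 2 (0.23). Ctsc encodes cathepsin C, or dipeptidyl peptidase I, which activates the serine proteases of granules. It read 477, 579 and 521 in control, 494, 509 and 485 at day 7, and 290.0, 354 and 349 at day 14. No day 14 array reached any other array. Ctsc fell by 0.67 against control (0.629 of its control level, SE 0.09, adjusted p = 0.00028) and by 0.59 against day 7 (adjusted p = 5e-04). Its other 2 probe sets were dim, with mean intensities of 21.8 and 20.5, and changed by 0.28, called higher, and by -0.02, so with the mean over probe sets the change was -0.13 and not called.

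The other 4 cathepsins were not called at day 14: Ctsa (-0.03), Ctsb (0.02), Ctss (-0.27, limma adjusted p = 0.12) and Ctsz (-0.12). Ctss, the cathepsin S of antigen-presenting cells, was the one with the largest difference at day 7. It gave 1103, 869 and 1163 in control, 778, 745 and 903 at day 7, and 734, 968 and 903 at day 14. The groups overlapped, and the day 7 change of -0.36 (SE 0.13, unadjusted p = 0.021, adjusted p = 0.17) did not pass the test over all genes.

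Gla was the one member called at both leukemic stages. It encodes alpha-galactosidase A, which removes galactose from glycolipids. Its intensity was 45.1, 37.5 and 34.9 in control, 63.1, 55.2 and 55.8 at day 7, and 58.4, 80.4 and 64.4 at day 14. Every leukemic array lay above every control array, and the leukemic stages overlapped. Gla was 1.49-fold higher at day 7 (0.57, SE 0.13, limma adjusted p = 0.041) and 1.72-fold higher at day 14 (0.79, SE 0.13, adjusted p = 0.00064), and the difference between the stages was 0.21 (SE 0.13, adjusted p = 0.19). The day 14 call was kept in all 21 alternatives. The day 7 call was lost in 9 of them, among which leaving out control replicate 2 (0.55) or 3 (0.49), day 7 replicate 1 (0.51), 2 (0.61) or 3 (0.60), or day 14 replicate 3 (0.57). It was also lost with the mean over probe sets, at 0.24, and the second Gla probe set changed by 0.16 at day 7 (adjusted p = 0.66).

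Gusb encodes beta-glucuronidase, which is also used as a reference gene for normalization. It read 474, 540.1 and 502 in control, 528, 512 and 470.3 at day 7, and 343, 364 and 367 at day 14. The day 14 arrays lay far below the others, which overlapped. Gusb fell by 0.50 against control (SE 0.07, limma adjusted p = 0.00034) and by 0.49 against day 7 (adjusted p = 3e-04), and a second probe set changed by -0.53 and -0.71. The acid alpha-glucosidase gene Gaa (0.08), the beta-galactosidase gene Glb1 (-0.03), the hexosaminidase gene Hexa (0.05), the acid lipase gene Lipa (0.08) and Psap (-0.16, adjusted p = 0.12), which encodes the saposin precursor, were not called at day 14. Gaa nevertheless did not overlap between control (229, 233 and 235) and day 14 (248, 244 and 246). Its second probe set, of similar brightness, was called higher on its own (0.22, limma adjusted p = 0.019). Gaa was also called higher at day 14 under both other scalings (0.17 and 0.20).

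Of the 5 measured membrane and lipid export genes, Lamp2 alone was called. That is 20% at day 14 against control, where 52.4% of all genes were called. LAMP2 coats the inner face of the lysosomal membrane, and one of its splice forms is the receptor of chaperone-mediated autophagy. The arrays gave 1099, 1086 and 999.8 in control, 1044, 954 and 955 at day 7, and 1305, 1259 and 1203 at day 14. Day 14 was above all others, with control and day 7 overlapping. Lamp2 rose by 0.24 against control (SE 0.07, limma adjusted p = 0.012) and by 0.35 against day 7 (adjusted p = 0.0016). Which splice form this probe set reads was not examined; of the 3 other probe sets 1 was called higher against control (0.30) and all 3 against day 7.

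Lamp1, the companion of Lamp2 on the membrane, gave 1039, 976 and 996 in control, 999.6, 966 and 947 at day 7, and 968, 1031 and 1016 at day 14. The 3 groups overlapped, and the day 14 change was 0.00 (SE 0.06, limma adjusted p = 0.99). The calcium channel gene Mcoln1 (-0.03) and the cholesterol export genes Npc1 (0.02) and Npc2 (0.06) were not called either, with adjusted p-values of 0.79, 0.82 and 0.60.

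The V-ATPase acidifies the lysosome and also serves as a docking site in mTORC1 signalling. Of its 6 member subunits 2 were lower at day 14 than in control (33.3%, against 34.1% of all genes), and none was higher; with a common 75th percentile 1 was higher and none was lower. Atp6v1b2 gave 368, 372 and 415 in control, 389, 362 and 349 at day 7, and 319.9, 338 and 339.7 at day 14. Atp6v1h gave 492, 492 and 533, then 536, 509.8 and 499, then 417, 434 and 467. In both genes the day 14 arrays were the 3 lowest. The changes from control were -0.21 (SE 0.07, limma adjusted p = 0.03) and -0.20 (SE 0.07, adjusted p = 0.027), and Atp6v1h was also lower than at day 7, at -0.23 (adjusted p = 0.016). None of these calls was kept when the arrays were scaled by quantiles (-0.12, -0.14 and -0.16) or to a common 75th percentile (-0.09, -0.08 and -0.10). Leaving out control replicate 3 (-0.15 and -0.16), day 14 replicate 1 (-0.18 and -0.17) or day 14 replicate 2 (-0.22 and -0.19) also ended the calls against control, as did the mean over probe sets (-0.02 and -0.03).

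The other 4 subunits, Atp6v0d1 (0.06), Atp6v1a (-0.05), Atp6v1c1 (-0.09) and Atp6v1d (-0.13, limma adjusted p = 0.084), were not called at day 14 by their brightest probe sets. The 2 further probe sets of Atp6v1c1 changed by -0.23 and -0.24, and those of Atp6v1d by -0.20 and -0.32, and all 4 were called lower when each probe set was tested on its own.

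**Figure D3:**
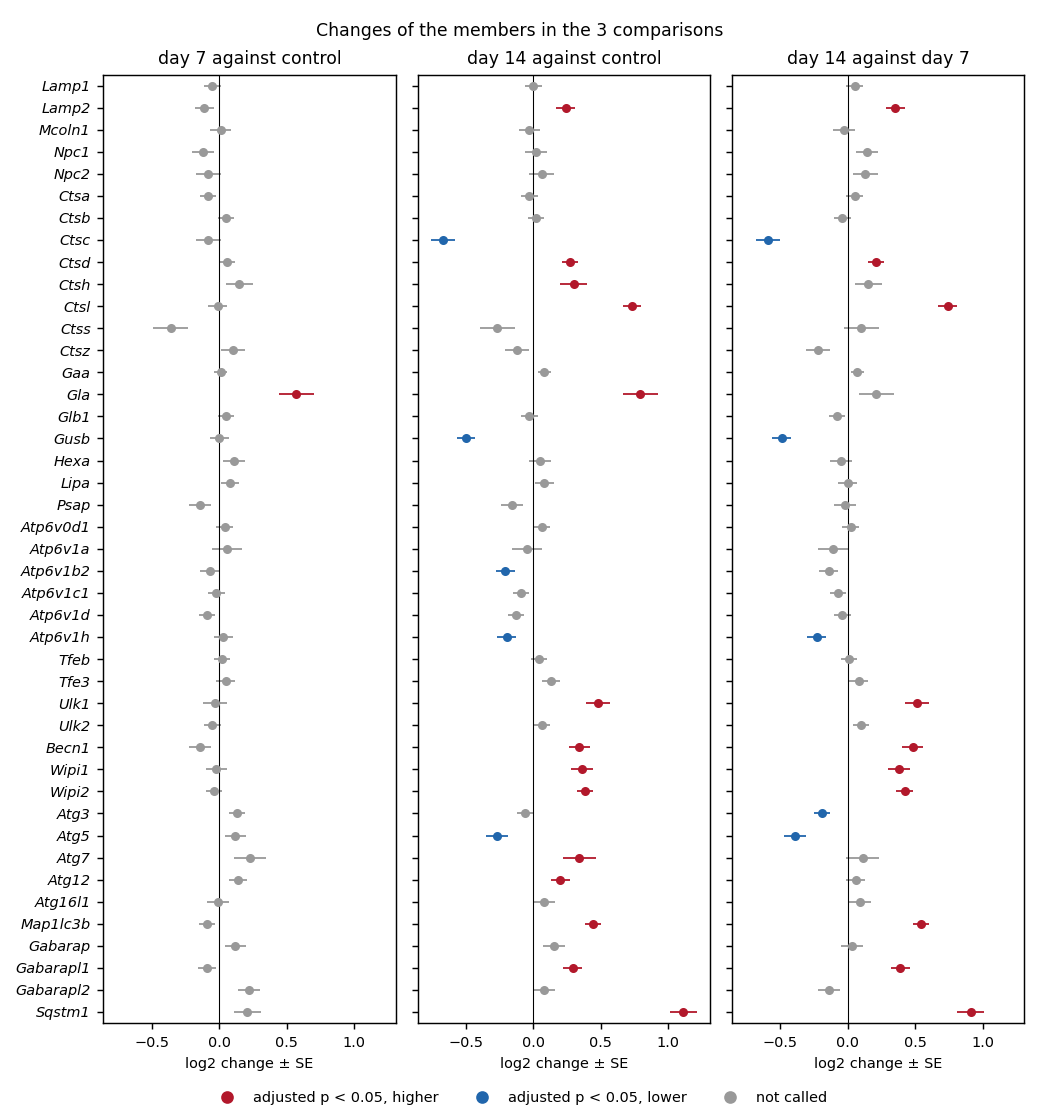
Log2 change of the 43 members in the 3 comparisons (points) with its standard error (bars); red marks genes called higher, blue genes called lower and grey genes not called in the limma fit. Gla is the single red point at day 7, and the day 14 panels hold 14 red and 5 blue points against control and 10 red and 5 blue against day 7.

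Tfeb and Tfe3 encode transcription factors that move to the nucleus when mTORC1 is inactive, a step that an RNA level does not measure. Tfeb gave 73.2, 72 and 72.1 in control, 73, 73 and 75 at day 7, and 76.5, 71.1 and 75.6 at day 14. Tfe3 gave 138, 125 and 138, then 140.5, 136 and 138, then 147, 138 and 153. In both genes the groups overlapped. The day 14 change from control was 0.04 for Tfeb (SE 0.06, limma adjusted p = 0.60) and 0.13 for Tfe3 (SE 0.07, adjusted p = 0.13), and at day 7 it was 0.02 and 0.05. Tfe3 was called higher at day 14 under both other scalings, and Tfeb was not.

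TFEB and TFE3 bind the E-box CACGTG, which is the core of the CLEAR element known from lysosomal promoters. These letters were searched in the 250 bases before each annotated start in RefSeq's promoters (build GRCm38.p6), which hold 35 of the 44 members. CACGTG, which reads the same on both strands, was present in 12 of the 35 (34.3%) and in 6.86% of all 27025 genes with an entry. TCACGTG, searched on both strands and overlapping CACGTG, was present in 10 members (28.6%) and 3.58% of all genes. Of the 14 members called at day 14 against control that had an entry, 5 held CACGTG (35.7%), and of the 20 not called, 7 did (35%). TCACGTG was in 3 of the called (21.4%) and 7 of those not called (35%). Of 133 other lysosome and autophagy genes, 104 had an entry, and 19 of these held CACGTG (18.3%) and 16 held TCACGTG (15.4%). A match is a description of letters and not a site in use.

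The 5 promoters below were picked as examples and do not represent all members, and none is of a gene called lower. Each is given for the strand of the gene and 5′ to 3′, with CACGTG in capitals. Lamp1 (chr8:13158911-13159160, plus strand) has 4 copies, the most of any member, within 61 bases of the start, and was not called in any comparison. Ctsd (chr7:142387828-142388077, minus strand) and Gla (chrX:134601006-134601255, minus strand) each have 2 copies and rose at day 14. Sqstm1 (chr11:50210821-50211070, minus strand) and Map1lc3b (chr8:121590188-121590437, plus strand) rose and have no copy in this window.
Lamp1: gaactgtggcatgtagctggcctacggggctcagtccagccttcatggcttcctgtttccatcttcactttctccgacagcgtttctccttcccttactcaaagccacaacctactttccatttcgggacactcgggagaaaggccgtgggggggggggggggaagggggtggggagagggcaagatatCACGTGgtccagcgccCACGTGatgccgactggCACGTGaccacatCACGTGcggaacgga
Ctsd: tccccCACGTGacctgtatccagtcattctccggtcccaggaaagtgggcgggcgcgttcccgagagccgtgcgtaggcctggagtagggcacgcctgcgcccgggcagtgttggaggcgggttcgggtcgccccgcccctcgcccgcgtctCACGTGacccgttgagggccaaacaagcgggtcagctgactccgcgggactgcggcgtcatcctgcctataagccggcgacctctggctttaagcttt
Gla: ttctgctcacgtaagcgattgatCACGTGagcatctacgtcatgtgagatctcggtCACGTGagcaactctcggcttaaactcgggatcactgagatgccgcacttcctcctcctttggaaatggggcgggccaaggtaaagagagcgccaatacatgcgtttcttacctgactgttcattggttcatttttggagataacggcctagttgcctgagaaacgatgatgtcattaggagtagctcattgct
Sqstm1: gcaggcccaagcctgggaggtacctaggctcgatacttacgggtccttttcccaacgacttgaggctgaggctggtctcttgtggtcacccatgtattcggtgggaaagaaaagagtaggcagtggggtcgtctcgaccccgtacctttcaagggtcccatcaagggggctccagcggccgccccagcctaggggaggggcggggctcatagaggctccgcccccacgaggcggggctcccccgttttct
Map1lc3b: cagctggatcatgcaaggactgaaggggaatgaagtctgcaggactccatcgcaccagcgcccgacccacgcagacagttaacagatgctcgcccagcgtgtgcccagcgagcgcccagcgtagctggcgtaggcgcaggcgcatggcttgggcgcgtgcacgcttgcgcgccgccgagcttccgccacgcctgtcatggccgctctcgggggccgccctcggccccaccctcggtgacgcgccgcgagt

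Sequence and change can be read side by side in these promoters: at day 14 the log2 changes from control were 0.00 for Lamp1, 0.27 for Ctsd, 0.79 for Gla, 1.11 for Sqstm1 and 0.44 for Map1lc3b. The copies lie 61, 45, 28 and 15 bases before the start in Lamp1, 245 and 98 in Ctsd, and 227 and 194 in Gla. Among the other members with a copy, Ctsl has 1 at 236 bases, Atg7 1 at 132 and Atg5 1 at 14, and these changed by 0.73, 0.34 and -0.27. In other members not called at day 14 against control, the copies lie at 94 and 71 bases in Atg3 (-0.06) and 131 in Atp6v1a (-0.05). They lie at 12 in Ctsa (-0.03), 140 in Gaa (0.08), 48 in Glb1 (-0.03), and 71 and 45 in Mcoln1 (-0.03). Of these, Atg3 was called lower at day 14 than at day 7.

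Grouped by function, 9 of the 15 autophagy members were higher and 1 was lower at day 14, with a median log2 change of 0.29. Of the 26 measured lysosome members 5 were higher and 4 lower, with a median of -0.01. These are 60% higher and 6.67% lower among the autophagy members and 19.2% and 15.4% among the lysosome members, beside 18.3% and 34.1% of all genes. The difference between these groups was not tested. In time, the called members fell into few patterns. 10 members were higher at day 14 than at both other stages, with no call at day 7: Sqstm1, Map1lc3b, Gabarapl1, Ulk1, Wipi1, Wipi2, Becn1, Ctsl, Ctsd and Lamp2. In the opposite direction, Ctsc, Gusb, Atg5 and Atp6v1h were lower at day 14 than at both. Gla, Atg7, Atg12 and Ctsh were higher at day 14 than in control, with no call between the leukemic stages, Atg3 and Atp6v1b2 each had the 1 call described above, and the remaining 23 members had none in any comparison.

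The changes of direction depend in part on how the arrays are scaled. The median log2 change of all genes at day 14 against control was -0.06 as deposited, 0.00 after quantile normalization and 0.06 with a common 75th percentile, and the share of calls that were higher went from 34.9% to 45.1% and 57.4%. Against day 7 it went from 34.1% to 44% and 57.8%. The members went from 14 higher and 5 lower to 16 and 2, then 20 and 2, against control, and from 10 and 5 to 16 and 3, then 21 and 3, against day 7. All 14 and all 10 higher calls were kept under both. Of the lower calls Ctsc and Gusb were kept against control under both scalings, and Atg5, Ctsc and Gusb against day 7. The percent of all genes called under the other scalings is not given here. Counts of members or of other lists under them therefore cannot be read against it.

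**Figure D4:**
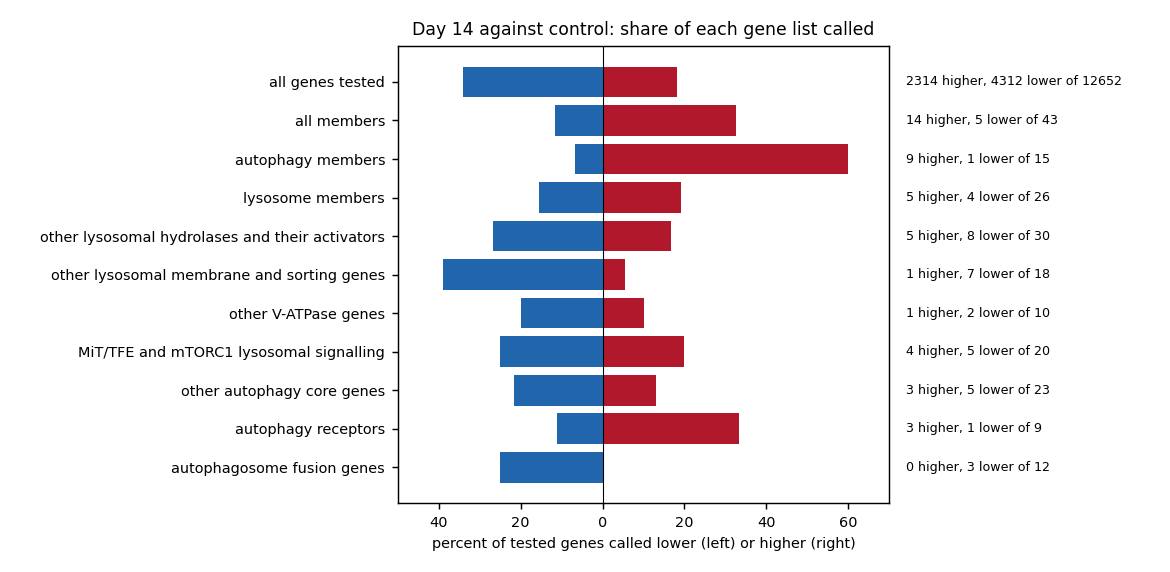
Percent of tested genes called lower (blue, to the left) and higher (red, to the right) at day 14 against control, for all genes, the members and lists of other lysosome and autophagy genes, with counts at the right. The autophagy members have 9 of 15 called higher, and the 7 lists of other pathway genes have between 0 and 5 each.

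Other genes of the same pathways, listed apart from the members, had more lower than higher calls at day 14 as deposited, and more higher than lower calls under the other scalings. Of 133 such genes 122 were tested, and 17 were higher and 31 lower at day 14 than in control. These are 13.9% and 25.4%, beside 18.3% and 34.1% of all genes, or 39.3% called against 52.4%. By list, 25% to 45% were called. After quantile normalization 25 were higher and 19 lower, and with a common 75th percentile 34 and 17. At day 7 none was higher and Cln3 alone was lower (-0.29, limma adjusted p = 0.047), a call lost in 13 of the alternatives. That is 0.82% of these genes, against 3.34% of all genes. Between day 14 and day 7, 22 were higher and 27 lower (40.2%, against 51% of all genes). The median log2 change at day 14 against control was -0.04.

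Among 30 other hydrolases and activators, 5 were higher and 8 lower at day 14, or 7 and 4 after quantile normalization and 9 and 5 with a common 75th percentile. The cysteine protease gene Ctsf rose by 0.70 (SE 0.08, limma adjusted p = 9.5e-05), the carboxypeptidase gene Scpep1 by 0.67 (SE 0.13, adjusted p = 0.0022) and the acid ceramidase gene Asah1 by 0.43 (SE 0.06, adjusted p = 0.00041). The sulfatase gene Arsb fell by 0.94 (SE 0.10, adjusted p = 6.0e-05), and the cathepsin genes Ctsw and Ctso fell by 0.64 and 0.44. Of 18 other membrane and sorting genes, 1 was higher, the channel gene Tpcn1 (0.25, lost without control replicate 1 or 2 or day 14 replicate 1 or 3), and 7 were lower. Igf2r, the mannose 6-phosphate receptor that sorts hydrolases to the lysosome, fell by 1.02 (0.491 of control, SE 0.08, adjusted p = 1.5e-05). Mcoln2 fell by 0.68 and Cd68 by 0.49, the latter lost without control replicate 2 (-0.41) or day 14 replicate 1 (-0.37).

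Of 10 other V-ATPase genes, Atp6ap2 rose by 0.24, and Atp6v0a2 and Atp6v0e fell by 0.41 and 0.23, Atp6v0e not with a common 75th percentile (-0.11), where 5 of the list were higher and 1 was lower. In the MiT/TFE and mTORC1 list, 4 of 20 were higher and 5 lower, or 4 and 2 under both other scalings. Deptor, an inhibitor of mTOR, rose by 0.59 (SE 0.10, limma adjusted p = 0.00078), and Fnip1 and Flcn, partners that regulate the Rag GTPases, rose by 0.49 and 0.34. Lamtor3 and Lamtor2, subunits of the Ragulator scaffold, fell by 0.69 (SE 0.06, adjusted p = 2.7e-05) and 0.28, and Fnip2 fell by 0.48; Lamtor2 was not called under either other scaling (-0.19 and -0.16), nor without control replicate 1 or 2 or day 14 replicate 1 or 2, and Fnip2 was not called after quantile normalization (-0.35).

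Among 23 other core autophagy genes, 3 were higher and 5 lower, or 6 and 4 after quantile normalization and 7 and 3 with a common 75th percentile. Map1lc3a, which encodes the LC3A paralogue of LC3B, rose by 1.05 (2.06-fold, SE 0.11, limma adjusted p = 5.0e-05), Wdr45b, a WIPI family gene, by 0.78 (SE 0.08, adjusted p = 4.1e-05) and the lipid transfer gene Atg2a by 0.34, lost without day 14 replicate 1 (0.27). The protease gene Atg4c fell by 0.62, and Pik3r4 and Pik3c3, which encode the VPS15 and VPS34 subunits that act with Beclin 1, fell by 0.55 and 0.45. Of 9 autophagy receptor genes, Tollip and Tax1bp1 rose by 0.32 and 0.30, Wdfy3 by 0.20, lost in 12 alternatives, and Phb2 fell by 0.38. Of 12 fusion genes none rose as deposited, and Vps16, Stx17 and Snap29 fell by 0.30, 0.26 and 0.21; none of these 3 was called under either other scaling, where the list had 1 and 3 genes called higher.

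Genes that mark other blood cells also moved. Over all genes 2.21% were called higher and 1.13% lower at day 7, and 18.3% and 34.1% at day 14. The counts below are of tested genes only. In the control arrays, 3 of 8 mast cell, 3 of 8 B cell, 3 of 7 T and NK cell and 4 of 7 erythroid genes never passed the 40th percentile. At day 7, 3 of 7 B cell genes, 2 of 4 T and NK cell genes and 1 each in the neutrophil, megakaryocyte and mast cell lists were higher than in control, and none in these lists was lower. At day 14, in the monocyte and macrophage list, 4 of 13 tested genes were higher and none was lower: Cd14 (1.42), Csf1r (1.09), Adgre1 (1.01) and Ccr2 (0.60). The summed intensity of that list was 2179.6 to 2748 in control, 2204 to 2827 at day 7 and 2816 to 3593 at day 14, and C1qb, C1qc and Mrc1 were at or below the 40th percentile of every day 14 array. Lyz2 and Mpeg1, bright macrophage genes, had means of 966 and 451 in control and 903 and 431 at day 14. The megakaryocyte and platelet list had 6 of 8 higher, Pf4 among them (2.12), with sums of 651 to 747 in control, 816 to 881 at day 7 and 1691 to 1987 at day 14. The mast cell and basophil list had 3 of 5 higher, such as Gzmb (2.95) and Cpa3 (1.14), with sums of 513 to 715, 725 to 827 and 1255 to 1517. The part of these cells in the lysosome and autophagy changes was not tested.

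The remaining marker lists moved less evenly at day 14, when 18.3% of all genes were called higher and 34.1% lower against control. The neutrophil and granule list had 3 higher and 2 lower of 9, with sums of 6210.4 to 7566 in control, 7309 to 9050.5 at day 7 and 8195 to 10333 at day 14. The B cell list had 5 higher and 1 lower of 7 (274 to 278, 393 to 474 and 406 to 494), and the T and NK cell list 3 and 1 of 4 (762 to 878, 972 to 1004 and 786 to 832). The dendritic list had 1 of 7 lower (3378 to 3958, 3052 to 3516 and 3199 to 3686) and the erythroid list no call among 3 (194 to 937, 267 to 302 and 156 to 234). In the stem and progenitor list Gata2 was higher (0.43) and Procr (-0.43) and Fgd5 (-0.40) were lower among 11, with sums of 10756 to 11291, 9501 to 10172 and 10311 to 11429.

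Probe sets of the same gene mostly changed in the same direction. Of 55 further probe sets of 31 members, 46 had the sign of the one that stands for the gene at day 14 against control. The number was 41 at day 14 against day 7 and 34 at day 7 against control. When every probe set was tested alone at day 14 against control, 13 were called in the direction of their gene's brightest probe set. In the opposite direction 2 were called, and 16 were not called where the brightest was. The 2 were the dim Ctsc probe set given above and an Atg7 probe set that changed by -0.31, beside another Atg7 probe set at 0.33. Against day 7, 11 were called in the same direction and 3 in the opposite one, those of Wipi2 (-0.25), Ctsc (0.31) and Atp6v1h (0.37). Map1lc3b was borne out by 2 further bright probe sets, at 0.66 and 0.51, Sqstm1 by one at 0.73 and Ulk1 by one at 0.49. Of 24 probe sets whose gene was not called at day 14 against control, 10 were called themselves. At day 7 against control this held for 2 of 54, of Atg12 (0.43) and Wipi2 (0.30), both higher.

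**Figure D5:**
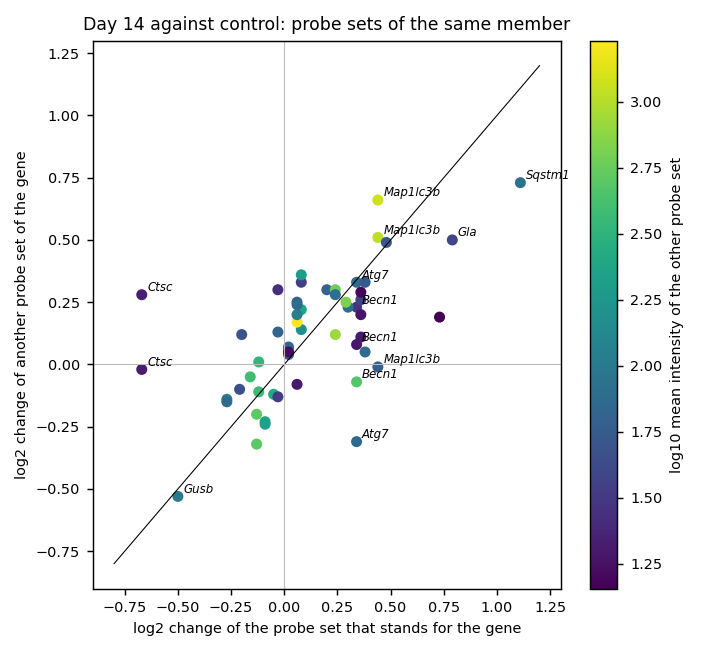
Log2 change at day 14 against control of each further probe set of a member (vertical) against the probe set that stands for the gene (horizontal), coloured by log10 mean intensity, with the line of equal change. Most points share the sign of the standing probe set; among those that do not are 1 each of Ctsc, Atg7 and Becn1.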

How the data were processed

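The deposited values are array intensities on a linear scale, which the authors normalized with Affymetrix Microarray Analysis Software 5.0 after 2-cycle amplification, per the labels and the series' design text. In 51.64% of probe sets some arrays hold exactly equal values, so a further step between arrays is possible but is not given in the sources used here. The table was used without further scaling. Of 45037 probe sets 34945 were annotated to 1 symbol, 932 to several and 9160 to none. For each of 18193 genes the brightest probe set was kept, floored at 5.81 (the 20th percentile), taken to log2, and tested if above the 40th percentile of its array in at least 3 arrays. One limma model (version 3.58.1, R 4.3.3) with group as its only term was fitted to all 9 arrays; tests are two-sided with Benjamini-Hochberg adjustment over 12652 genes, called below 0.05. The fit was tested on simulated data with independent noise. Simulated log2 changes of 0.5 were called in 82% of genes and changes of 1, 1.5 and 2 in 100%, with 15 false calls. Changes below 0.5, which many called members had, were not simulated. Far fewer genes were changed there than were called at day 14, so the test does not speak to that setting. The number of arrays limits the precision.

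The members and the other gene lists were chosen with earlier results of these data known. Array values are given for called members (up to 4 per direction and role, by size of change), for the smallest p in a role without a call, and for Tfeb, Tfe3, Sqstm1 and Map1lc3b; of other lists up to 3 called genes per direction, by size. Alternatives were other scalings, floors, filters, probe set rules, variance priors, array weights, samples in the fit, a replicate block, and leaving out each array. Same-numbered samples did not deviate together (correlations of deviations from group means -0.19 to 0.12 over 9 pairs, against -0.15 to 0.20 over 18 others).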

Additional observations from a re-analysis of the deposited data

Results flagged for a closer look

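The contrast of day 14 with day 7 equals the difference between the changes from control at the 2 stages. By that limma test (adjusted p below 0.05) the changes differed for 15 members. The difference, in log2 units, was positive for Sqstm1 (0.91), Ctsl (0.74), Map1lc3b (0.54), Ulk1 (0.51), Becn1 (0.48), Wipi2 (0.42), Gabarapl1 (0.39), Wipi1 (0.38), Lamp2 (0.35) and Ctsd (0.21). It was negative for Ctsc (-0.59), Gusb (-0.49), Atg5 (-0.39), Atp6v1h (-0.23) and Atg3 (-0.19). Of the 12652 genes tested, 51% differed in this way.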

How the results depend on the processing

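Over 21 alternatives the calls at day 14 against control were kept throughout for 11 of 19 members (Sqstm1, Gla, Ctsl, Ulk1, Map1lc3b, Wipi2, Wipi1, Gabarapl1, Ctsd, Lamp2 and Gusb), and those against day 7 for 10 of 15; 12 of 24 and 15 of 28 uncalled members were called in at least 1 alternative. Members called lower against control numbered 2 after quantile normalization and 2 with a common 75th percentile. Against day 7 those scalings gave 16 and 21 higher and 3 and 3 lower. At day 7 none (0) was called higher without the filter, with the mean over probe sets or with the replicate block, and 2 (Ctss and Lamp2) were called lower with array weights. With the mean over probe sets Atp6v1h reversed against day 7, to 0.05; the dim second probe set has the opposite sign. For the other changes the cause was not tested.

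Leaving out 1 array at a time gave 0 to 1 members higher and 0 to 0 lower at day 7, 11 to 14 higher and 2 to 7 lower at day 14 against control, and 9 to 10 higher and 3 to 6 lower against day 7. Of the lower counts, that against control was 3 when control replicate 3 was left out, 2 when day 14 replicate 1 was, and 3 when day 14 replicate 2 was; that against day 7 was 3 without day 7 replicate 1. The numbers do not pair the samples; with the replicate block 12 members were higher and 4 lower against control, and 10 and 5 against day 7. With 3 arrays a group, small changes may go uncalled. The percent of all genes called without 1 array or with the replicate block is not given here, so these counts cannot be read against it.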
